A study of Homo sapiens with 9 samples.

Results

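The 42 genes described here carry out or control DNA replication and S phase, out of 62700 genes in the deposited count table. They were taken by symbol from a fixed list: the MCM helicase subunits and the other factors that load them, the GINS complex, the replicative polymerases with their clamp and clamp loader, the RPA single-strand binding complex, the enzymes that supply nucleotides, the E2F factors and 4 regulators of S phase. The question was whether these genes followed the induction of CCND1 and CCNE1, the genes of the G1 cyclins D1 and E1, 48 hours after a CIC fusion gene was introduced. All 42 passed the filter on low counts, with 196 to 23584 counts in each library.

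The cells were 293T, a human embryonic kidney line, transfected with 1 of 3 plasmids. Empty vector carried no insert, and the other two encoded HA-tagged CIC joined at exon 20 to exon 6 of NUTM1, or HA-tagged CIC::DUX4. They are called CIC::NUTM1 and CIC::DUX4 here. CIC is a DNA-binding repressor that is found fused to DUX4 or NUTM1 in sarcomas. Each group had 3 libraries of polyA-selected RNA, each from 300000 cells transfected on a separate day, and every group including the controls received the transfection reagent and a plasmid. The promoter driving the inserts and the share of cells that took up plasmid are not given in the sources used here. In these bulk libraries, fewer cells with a change and a smaller change per cell cannot be told apart. As background, 293T cells carry adenoviral early genes and the SV40 large T antigen, products known to bind RB family proteins, and all 3 groups share them.

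DNA replication is prepared in G1, when ORC, CDC6 and CDT1 load the ring of MCM subunits 2 to 7 onto origins. At the start of S phase CDC45 and the GINS complex turn that ring into an active helicase, primase and polymerase alpha begin the strands, and polymerases epsilon and delta extend them with the PCNA clamp. Cyclin D with CDK4 or CDK6, and then cyclin E with CDK2, phosphorylate RB, which releases E2F factors onto the promoters of many of these genes. Members of the list are therefore textbook E2F targets as well as parts of the replication machinery.

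The promoters of 4 members that rose with a fusion are shown first, with that of PCNA, a member that did not pass the test, for comparison. Each is 250 bases before and 50 after the start site, from RefSeq on GRCh38.p14, written on the gene's strand. Capitals mark an E2F motif, searched as TTTCCCGC, TTTGGCGC, TTTCGCGC or TTTGCCGC on both strands. Where RefSeq gave a gene several promoters, the 1 with the most motifs is shown. MCM7 had 3 promoters and PCNA 2, and only 1 of each gene held an E2F motif. The POLE promoter (chr12:132687293-132687592, minus strand) and the CDT1 promoter (chr16:88803539-88803838, plus strand) each hold 1 motif, with first bases at -18 and -35 from the start. The CDC25A promoter (chr3:48188368-48188667, minus strand) holds 1 at -44, the MCM7 promoter (chr7:100101348-100101647, minus strand) holds 2 at -187 and -9, and the PCNA promoter (chr20:5126573-5126872, minus strand) holds 1 at -59.
POLE: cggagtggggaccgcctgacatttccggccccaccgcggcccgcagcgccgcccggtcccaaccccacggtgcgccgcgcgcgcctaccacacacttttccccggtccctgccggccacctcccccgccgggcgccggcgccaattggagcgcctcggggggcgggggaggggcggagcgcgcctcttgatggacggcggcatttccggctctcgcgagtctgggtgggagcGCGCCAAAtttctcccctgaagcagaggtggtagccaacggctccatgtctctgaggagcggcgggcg
CDT1: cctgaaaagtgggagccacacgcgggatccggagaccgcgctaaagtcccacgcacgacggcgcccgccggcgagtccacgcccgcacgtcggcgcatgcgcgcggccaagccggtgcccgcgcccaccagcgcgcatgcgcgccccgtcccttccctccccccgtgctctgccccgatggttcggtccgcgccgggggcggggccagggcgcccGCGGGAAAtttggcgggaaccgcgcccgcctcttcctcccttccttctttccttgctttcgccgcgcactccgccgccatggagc
CDC25A: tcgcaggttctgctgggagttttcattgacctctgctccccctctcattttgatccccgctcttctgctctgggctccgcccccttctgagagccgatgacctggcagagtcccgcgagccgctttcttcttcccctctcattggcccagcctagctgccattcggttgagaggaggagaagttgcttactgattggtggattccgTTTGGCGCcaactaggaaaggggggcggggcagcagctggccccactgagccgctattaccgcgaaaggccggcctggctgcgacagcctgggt
MCM7: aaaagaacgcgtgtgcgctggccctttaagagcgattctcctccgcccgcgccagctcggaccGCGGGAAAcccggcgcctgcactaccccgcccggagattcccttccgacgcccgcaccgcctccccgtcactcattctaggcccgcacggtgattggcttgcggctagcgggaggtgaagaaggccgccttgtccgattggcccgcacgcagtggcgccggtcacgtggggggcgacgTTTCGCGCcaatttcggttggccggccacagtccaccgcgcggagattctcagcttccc
PCNA: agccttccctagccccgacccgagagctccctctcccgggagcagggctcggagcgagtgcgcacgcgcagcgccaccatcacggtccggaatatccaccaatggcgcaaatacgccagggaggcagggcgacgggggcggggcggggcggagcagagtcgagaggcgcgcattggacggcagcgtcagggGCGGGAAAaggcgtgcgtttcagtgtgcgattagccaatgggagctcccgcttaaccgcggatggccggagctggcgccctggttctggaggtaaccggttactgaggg

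RefSeq promoters matched 35 of the 42 members. MCM4, MCM5, GINS4, E2F8, WEE1, RPA2 and RPA3 had no entry. An E2F motif lay in 20 of the members' 46 promoters (43.5%), against 3.31% of all 35116 promoters of the same length. By gene, 20 of 35 members (57.1%) held one, against 3.99% of 27305 genes. The CIC motifs TGAATGAA and TGAATGGA, searched on both strands, were in 0 of the 46 promoters and in 2.63% of all promoters. A match is only a match of letters within this window and is no evidence of binding. ORC6, which was called with CIC::NUTM1, held no E2F motif in its 1 promoter.

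Both G1 cyclins rose with both fusions. Levels are CPM, each count as a share of its library total scaled by TMM, a factor that corrects for differences in library composition. Values are listed in the order of replicates 1, 2 and 3. CCND1 (ENSG00000110092) stood at 97.4, 79.2 and 84.5 CPM with empty vector, at 271, 222 and 229 CPM with CIC::DUX4 and at 438, 303 and 407 CPM with CIC::NUTM1. The groups did not overlap, and CIC::NUTM1 was the highest. CCND1 rose 2.77-fold with CIC::DUX4 (adjusted p = 0.000197, edgeR quasi-likelihood test) and 4.40-fold with CIC::NUTM1 (adjusted p = 9.01e-06). The difference of 0.67 ± 0.14 (SE) on the log2 scale between the fusions had an adjusted p of 0.0251. That call was lost without CIC::NUTM1 replicate 1 or 3 or CIC::DUX4 replicate 2 or 3 (adjusted p up to 0.133). CCNE1 (ENSG00000105173) stood at 29.2, 26.1 and 30.3 CPM with empty vector, at 46.6, 41.5 and 43.5 CPM with CIC::DUX4 and at 48.5, 41.1 and 42.5 CPM with CIC::NUTM1. It was 1.54-fold higher with either fusion (adjusted p = 4.71e-05 and 2.75e-05), and the fusions differed by 0.00 on the log2 scale (95% interval -0.19 to 0.20).

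**Figure D1:**
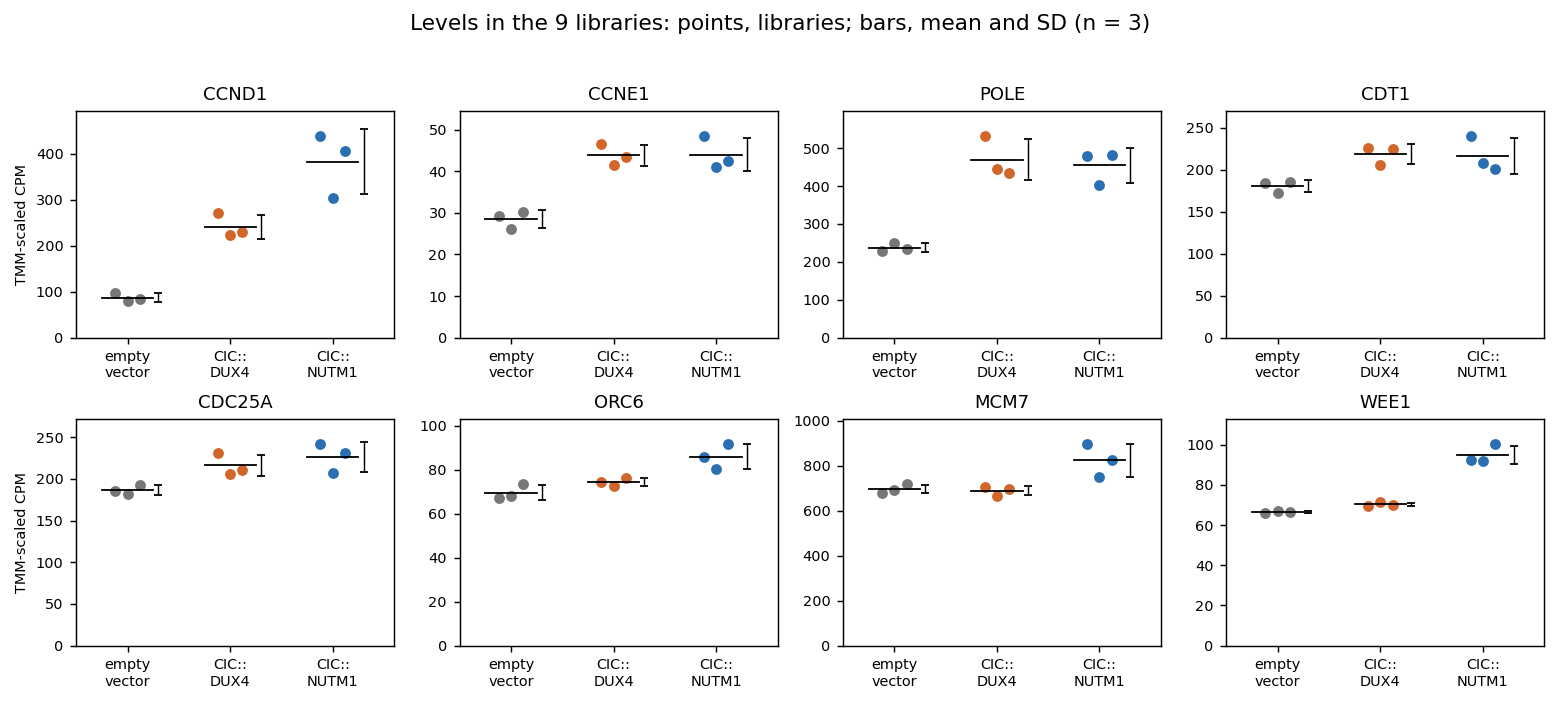
TMM-scaled CPM (y axis, from 0) of CCND1, CCNE1 and 6 replication or S phase genes in the 9 libraries. Points are libraries, horizontal lines are means and bars are SDs over 3 libraries; POLE in the fusion libraries lies between 402 and 532 CPM, above all 3 empty vector libraries, while MCM7 and WEE1 stand apart from empty vector with CIC::NUTM1 but not, past the test, with CIC::DUX4.

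The replication genes as a list showed small changes by the side of the cyclins. With CIC::DUX4, 3 of 42 members were called higher at an adjusted p under 0.05 and none lower: POLE, CDT1 and CDC25A. That is 7.14% of the members, where 6.96% of the 17576 genes tested were called higher and 1.27% lower. With CIC::NUTM1, 6 of 42 were called higher and none lower: POLE, WEE1, CDC25A, MCM7, ORC6 and CDT1. That is 14.3% of members, where 11.5% of all tested genes were higher and 3.83% lower. Both shares called higher were near the background. At an unadjusted p under 0.05 the counts of members in either direction were 7 and 14. The share of all tested genes at that threshold was not computed here, so these 2 counts have no background to be read against. The 2 comparisons share the empty vector libraries, so the presence of POLE, CDT1 and CDC25A in both is not independent.

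The 42 members had a median log2 fold change of -0.01 with CIC::DUX4, beside -0.00145 for all tested genes. For CIC::NUTM1 these medians were 0.02 and -0.00086. The latter sign depended on scaling, since the members' median with CIC::NUTM1 was -0.02 under library totals or upper quartile factors. The quartiles of the members lay from -0.08 to 0.07 with CIC::DUX4 and from -0.05 to 0.12 with CIC::NUTM1. For all tested genes they were -0.12 to 0.20 and -0.16 to 0.23. Among the 9072 tested genes within the members' range of mean CPM (14.8 to 737), 6.23% and 13.0% were called higher and 2.01% and 6.17% lower. The quartiles of these 9072 genes were narrower than those of all tested genes. They lay from -0.108 to 0.0755 with CIC::DUX4 and from -0.127 to 0.119 with CIC::NUTM1. The members' upper quartiles, 0.0736 and 0.123, were close to those of these genes.

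The 95% intervals limit how large a missed change could be. With CIC::DUX4, 41 of the 42 intervals lay wholly within 0.5 of zero on the log2 scale and 32 within 0.3, and with CIC::NUTM1 the counts were 39 and 29. Among members that were not called, upper bounds reached 0.34 with CIC::DUX4, and 0.33 with CIC::NUTM1. Those bounds lie below the lower bounds of both cyclins with either fusion. These were 1.14 and 1.80 for CCND1 and 0.43 for CCNE1 in both comparisons. That order follows in part from selection, since called members are left out and the question named the 2 cyclins as induced. Among called members, POLE had intervals of 0.82 to 1.15 with CIC::DUX4 and 0.77 to 1.10 with CIC::NUTM1. The interval of ORC6 reached 0.46 with CIC::NUTM1. In 12 members the CIC::DUX4 and empty vector libraries did not overlap (8 above empty vector, 4 below), where 25.7% of tested genes showed no overlap. With CIC::NUTM1 this held for 19 members (11 above, 8 below), beside 31.1% of tested genes.

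**Figure D2:**
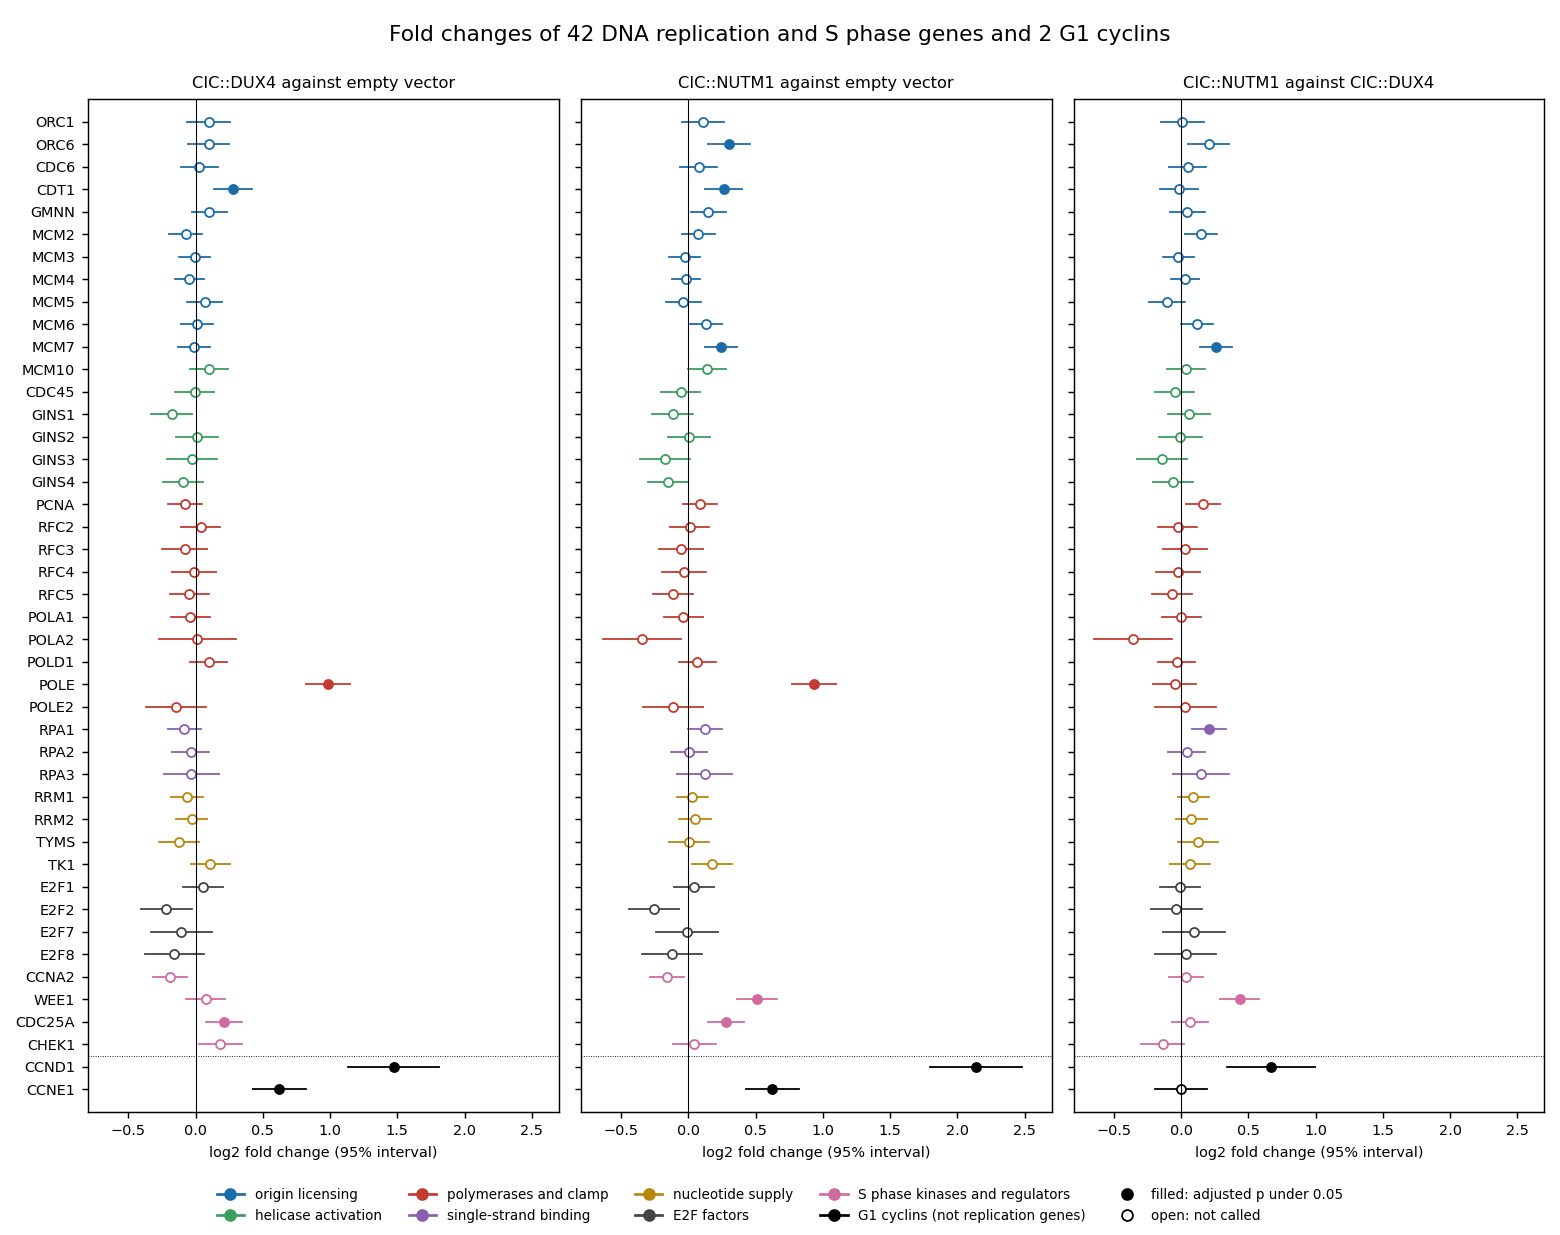
Log2 fold change (x axis) with its 95% interval for the 42 members, ordered by role and coloured by it, and for CCND1 and CCNE1 at the bottom, in the 3 comparisons. Filled points passed an adjusted p of 0.05; most members sit near 0 and POLE, at 0.98 and 0.93, stands apart in both comparisons with empty vector.

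The sum of the 42 members gave the same picture per library. It was 6791, 6840.1 and 7123 CPM with empty vector, 7307, 6976 and 7109 CPM with CIC::DUX4 and 7666, 7222 and 7488 CPM with CIC::NUTM1. The CIC::NUTM1 libraries lay above the empty vector libraries and those with CIC::DUX4 overlapped them. The mean was 6918 ± 179 (SD, n = 3) with empty vector, and CIC::DUX4 and CIC::NUTM1 stood at 1.03 and 1.08 times that mean. Without POLE the ratios were 0.997 and 1.05. The CIC::NUTM1 and empty vector libraries then overlapped, with CIC::NUTM1 replicate 2 at 6820 CPM and empty vector replicate 3 at 6889 CPM.

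Origin licensing had 11 members, of which CDT1, ORC6 and MCM7 were called with a fusion. Of all tested genes 8.24% were called with CIC::DUX4 and 15.3% with CIC::NUTM1. The counts by role, here and below, rest on too few genes to be read as differing from those shares. CDT1 (ENSG00000167513), which brings MCM rings to origins, stood at 185, 172 and 185 CPM with empty vector, at 226, 206 and 225 CPM with CIC::DUX4 and at 240.2, 208 and 201 CPM with CIC::NUTM1. Both fusions lay above empty vector in every library. CDT1 rose 1.21-fold with CIC::DUX4 (log2 fold change 0.28 ± 0.07, adjusted p = 0.00806) and 1.20-fold with CIC::NUTM1 (0.26 ± 0.07, adjusted p = 0.00856). The first call was lost without empty vector replicate 2 or CIC::DUX4 replicate 1 (adjusted p up to 0.0658), and the second without empty vector replicate 2 or CIC::NUTM1 replicate 1 (up to 0.0718). GMNN, the gene of geminin, which holds CDT1 inactive in S phase, had log2 fold changes of 0.10 and 0.15 that were not called.

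ORC6 (ENSG00000091651), a subunit of the origin recognition complex, stood at 67.2, 68.1 and 73.5 CPM with empty vector, at 74.5, 72.7 and 76.4 CPM with CIC::DUX4 and at 85.7, 80.5 and 91.6 CPM with CIC::NUTM1. Every CIC::NUTM1 library exceeded empty vector, and the CIC::DUX4 libraries overlapped it. ORC6 rose 1.23-fold with CIC::NUTM1 (0.30 ± 0.07, adjusted p = 0.00535), a call lost without CIC::NUTM1 replicate 3 (adjusted p = 0.0642). With CIC::DUX4 the log2 fold change was 0.10 ± 0.07 (adjusted p = 0.528), and the difference between the fusions, 0.21 ± 0.07, had an adjusted p of 0.113. ORC1 and CDC6, the other loading factors, had log2 fold changes from 0.03 to 0.11 with the fusions, none of them called.

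MCM7 (ENSG00000166508), a helicase subunit, stood at 681, 691 and 717 CPM with empty vector, at 706, 666 and 697 CPM with CIC::DUX4 and at 896, 751 and 827 CPM with CIC::NUTM1. The CIC::NUTM1 libraries lay above both other groups, which overlapped. MCM7 rose 1.18-fold with CIC::NUTM1 (0.24 ± 0.06, adjusted p = 0.00369) and was 1.20-fold higher than with CIC::DUX4 (0.26 ± 0.06, adjusted p = 0.00532). Both calls held in every alternative run. In GENCODE 29, 8.94% of the exon bases of MCM7 overlap AP4M1 on the other strand, and the use of strand in counting is not given in the sources used here.

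The other helicase subunits of the same ring moved less. MCM2 (ENSG00000073111) stood at 506, 495 and 534 CPM with empty vector, at 497, 457 and 505 CPM with CIC::DUX4 and at 581, 513 and 522 CPM with CIC::NUTM1. Each fusion group overlapped empty vector, with log2 fold changes of -0.07 ± 0.06 (adjusted p = 0.557) and 0.07 ± 0.06 (adjusted p = 0.459). Every CIC::NUTM1 library lay above every CIC::DUX4 library, a difference of 0.15 ± 0.06 that was not called (adjusted p = 0.159). MCM3, MCM4 and MCM5 lay between -0.05 and 0.07 in both comparisons. MCM6 had 0.01 with CIC::DUX4 and 0.13 with CIC::NUTM1 (adjusted p = 0.133). MCM7 was the 1 of these 6 subunits that was called, and the difference between MCM7 and its partners was not tested.

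Helicase activation had 6 members and none was called with either fusion. With 8.24% and 15.3% of all tested genes called, a list this short can hold no call at the background share. The same holds for the RPA, nucleotide supply and E2F genes below. GINS1 (ENSG00000101003), a GINS subunit, stood at 84.5, 76.4 and 76.2 CPM with empty vector, at 70.8, 69.9 and 69.1 CPM with CIC::DUX4 and at 75.1, 74.3 and 69.0 CPM with CIC::NUTM1. Every fusion library was below every empty vector library, yet the log2 fold changes of -0.18 ± 0.07 and -0.12 ± 0.07 had adjusted p of 0.180 and 0.329. GINS3 (ENSG00000181938) stood at 43.0, 45.4 and 44.8 CPM with empty vector, at 40.8, 41.8 and 48.5 CPM with CIC::DUX4 and at 42.4, 37.9 and 38.4 CPM with CIC::NUTM1. Its log2 fold changes were -0.03 ± 0.09 and -0.17 ± 0.09 (adjusted p = 0.918 and 0.233). GINS2, GINS4, CDC45 and the activation factor MCM10 lay between -0.15 and 0.14.

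Among the 10 genes of the polymerases and the clamp, POLE stood alone. POLE (ENSG00000177084) encodes the catalytic subunit of polymerase epsilon, the leading-strand polymerase. It stood at 228, 250.2 and 235 CPM with empty vector, at 532, 444 and 433 CPM with CIC::DUX4 and at 478, 402 and 483 CPM with CIC::NUTM1. The fusion groups overlapped one another and both lay far above empty vector. POLE rose 1.98-fold with CIC::DUX4 (0.98 ± 0.08, adjusted p = 2.74e-08) and 1.91-fold with CIC::NUTM1 (0.93 ± 0.08, adjusted p = 3.18e-08). The fusions differed by -0.05 ± 0.08 (95% interval -0.21 to 0.11, adjusted p = 0.819). Both calls held in every alternative run.

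The partners of POLE in the polymerase epsilon complex did not pass the test. POLE2, its second subunit, had log2 fold changes of -0.15 ± 0.11 with CIC::DUX4 and -0.11 ± 0.11 with CIC::NUTM1. POLE3 and POLE4, the small histone-fold subunits, are in the list of other replication genes and had changes of 0.05 and -0.01 with CIC::DUX4 and of 0.05 and -0.11 with CIC::NUTM1. POLE3 and POLE4 were singled out after their values were seen. No other gene overlaps the exons of POLE in GENCODE 29. On the opposite strand PXMP2, a peroxisomal membrane protein gene, starts 245 bases from the start of POLE in RefSeq, head to head with it. PXMP2 stood at 2.16 ± 0.467 CPM with empty vector, 2.33 ± 0.212 with CIC::DUX4 and 2.95 ± 0.184 with CIC::NUTM1 (SD, n = 3), with log2 fold changes of 0.12 ± 0.29 and 0.46 ± 0.28 that were not called (adjusted p = 0.877 and 0.311).

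The sliding clamp and its loader changed little. PCNA (ENSG00000132646) stood at 243, 236 and 253 CPM with empty vector, at 239.5, 228 and 226 CPM with CIC::DUX4 and at 261, 241 and 275 CPM with CIC::NUTM1. The groups overlapped with empty vector, with log2 fold changes of -0.08 ± 0.06 (adjusted p = 0.537) and 0.08 ± 0.06 (adjusted p = 0.404). The clamp loader genes RFC2, RFC3, RFC4 and RFC5, the polymerase alpha gene POLA1 and the polymerase delta gene POLD1 lay between -0.11 and 0.10 with either fusion. POLA2, the second subunit of polymerase alpha, was at -0.34 ± 0.14 with CIC::NUTM1 (adjusted p = 0.107). It had the fewest counts of the members, and 35.1% of its exon bases overlap another gene on the same strand.

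Of the 3 RPA genes, whose proteins coat single-stranded DNA at forks, none was called against empty vector. RPA1 (ENSG00000132383) stood at 226, 239 and 258 CPM with empty vector, at 230.5, 230.1 and 222 CPM with CIC::DUX4 and at 270.1, 254 and 264 CPM with CIC::NUTM1. The fusion groups lay on either side of the empty vector mean and each overlapped its libraries. The log2 fold changes were -0.08 ± 0.06 (adjusted p = 0.498) and 0.12 ± 0.06 (adjusted p = 0.182). RPA2 and RPA3 lay between -0.04 and 0.12.

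The 4 nucleotide supply genes showed no called change. RRM2 (ENSG00000171848), the small subunit of ribonucleotide reductase and a marker of S phase, stood at 237, 239 and 242 CPM with empty vector, at 224, 244 and 237 CPM with CIC::DUX4 and at 244, 248 and 251 CPM with CIC::NUTM1. Its log2 fold changes were -0.03 ± 0.06 and 0.05 ± 0.06, with 95% intervals of -0.14 to 0.09 and -0.07 to 0.17. RRM1, the large subunit, had -0.06 and 0.03. TYMS (ENSG00000176890), thymidylate synthase, stood at 149, 134 and 147 CPM with empty vector, at 128, 121 and 147 CPM with CIC::DUX4 and at 147, 141 and 144 CPM with CIC::NUTM1. TK1 (ENSG00000167900), thymidine kinase, stood at 122, 121 and 135 CPM with empty vector, at 135, 132 and 141 CPM with CIC::DUX4 and at 156, 132 and 141 CPM with CIC::NUTM1. Each of the 2 overlapped empty vector in both comparisons. TYMS was at -0.12 and 0.01 and TK1 at 0.11 and 0.18, with adjusted p from 0.100 to 0.967. The exons of TYMS overlap ENOSF1 and TYMSOS on the other strand over 46.6% of their bases.

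None of the 4 E2F genes was called. E2F1 (ENSG00000101412), an activator of S phase genes, stood at 96.0, 94.6 and 96.4 CPM with empty vector, at 100.0, 98.8 and 99.4 CPM with CIC::DUX4 and at 109, 95.9 and 91.3 CPM with CIC::NUTM1. Its log2 fold changes were 0.06 ± 0.07 and 0.04 ± 0.07. E2F2 (ENSG00000007968), another activator, stood at 58.4, 56.2 and 55.0 CPM with empty vector, at 44.1, 50.4 and 51.6 CPM with CIC::DUX4 and at 43.1, 53.4 and 45.2 CPM with CIC::NUTM1. Every fusion library was below every empty vector library, with log2 fold changes of -0.22 ± 0.09 (adjusted p = 0.175) and -0.25 ± 0.09 (adjusted p = 0.0608). The second passed the threshold in 5 of 15 alternatives (adjusted p from 0.00990 to 0.219). The repressors E2F7 and E2F8 lay between -0.16 and -0.01.

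Among the 4 S phase kinases and regulators, CDC25A and WEE1 act in opposition on the cyclin-dependent kinases. CDC25A (ENSG00000164045), a phosphatase that activates CDK2, stood at 185, 181 and 193 CPM with empty vector, at 231, 206 and 211 CPM with CIC::DUX4 and at 241, 207 and 231 CPM with CIC::NUTM1. Every fusion library lay above every empty vector library. It rose 1.21-fold with CIC::NUTM1 (0.28 ± 0.07, adjusted p = 0.00362). With CIC::DUX4 the change was 1.16-fold (0.21 ± 0.07, adjusted p = 0.0437), a call lost in all 6 fits that left out 1 library and in 6 of the 9 other alternatives (adjusted p from 0.0222 to 0.303).

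WEE1 (ENSG00000166483), a kinase that inhibits CDK1 and CDK2, stood at 66.2, 67.0 and 66.6 CPM with empty vector, at 69.5, 71.3 and 69.9 CPM with CIC::DUX4 and at 92.6, 91.9 and 100.2 CPM with CIC::NUTM1. The CIC::NUTM1 libraries stood well apart, and those with CIC::DUX4 lay just above empty vector. WEE1 rose 1.42-fold with CIC::NUTM1 (0.51 ± 0.07, adjusted p = 6.79e-06), and its level there was 1.35-fold that with CIC::DUX4 (0.43 ± 0.07, adjusted p = 0.000194). With CIC::DUX4 the change was 0.08 ± 0.07 (adjusted p = 0.634). These calls of WEE1 held in every alternative run.

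CCNA2 (ENSG00000145386), the cyclin A2 gene, whose product drives S phase with CDK2, stood at 175, 173 and 190.0 CPM with empty vector, at 157, 152 and 162 CPM with CIC::DUX4 and at 161, 159 and 162 CPM with CIC::NUTM1. Every fusion library lay below every empty vector library. The log2 fold changes were -0.19 ± 0.06 (adjusted p = 0.0521) and -0.16 ± 0.06 (adjusted p = 0.0878), so CCNA2 missed the threshold while CCND1 and CCNE1 passed it upward. With CIC::DUX4 it passed in 5 of 15 alternatives (adjusted p from 0.0264 to 0.303), and with CIC::NUTM1 in 2 (0.0206 to 0.354). Of its exon bases, 9.08% overlap EXOSC9 on the other strand. CHEK1, a checkpoint kinase gene, was at 0.18 and 0.04 and was not called.

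The direct comparison of the fusions asked which members differed between them. Of 42 members 3 were higher with CIC::NUTM1 and none lower, which is 7.14%, where 4.97% of tested genes were higher and 1.64% lower. They were WEE1 and MCM7, above, and RPA1 (0.21 ± 0.06, adjusted p = 0.0348). The RPA1 call was lost in 5 of 6 fits that left out 1 library, all but that without CIC::NUTM1 replicate 2, and in 4 of 9 other alternatives (adjusted p up to 0.152). At an unadjusted p under 0.05 there were 8 members, with no share of all tested genes computed at that threshold. The median of the members was 0.03 and that of all tested genes -0.00528, and the members' median turned to -0.01 under library totals. The libraries of the 2 fusions did not overlap in 12 members (10 higher with CIC::NUTM1, 2 lower), where 22.0% of tested genes showed no overlap. For 40 members the 95% interval lay wholly within 0.5 of zero.

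Levels per length place the members relative to one another. Divided by the kilobases of exon in GENCODE 29, the highest with empty vector were PCNA at 166 CPM per kb, MCM7 at 159, MCM3 at 108, MCM2 at 104 and MCM4 at 87.5. MCM6 had 63.7 and MCM5 41.7, over exon lengths of 4118 and 7338 bases. In CPM their order was the reverse, 262 for MCM6 and 306 for MCM5, so it depended on the length used. The lowest were POLA2 at 2.77, E2F7 at 5.604 and E2F8 at 5.65. POLE stood at 14.3 ± 0.690 CPM per kb with empty vector, below its delta counterpart POLD1 at 36.0. It reached 28.3 with CIC::DUX4 and 27.4 with CIC::NUTM1, beside 38.5 and 37.7 for POLD1. That order depended on the lengths used, 16609 bases for POLE and 4932 for POLD1. In CPM, POLE was above POLD1 with empty vector (238 and 177), CIC::DUX4 (470 and 190) and CIC::NUTM1 (454 and 186). The union of exons over all transcripts was used as length, so genes with many alternative exons read low on this scale.

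**Figure D3:**
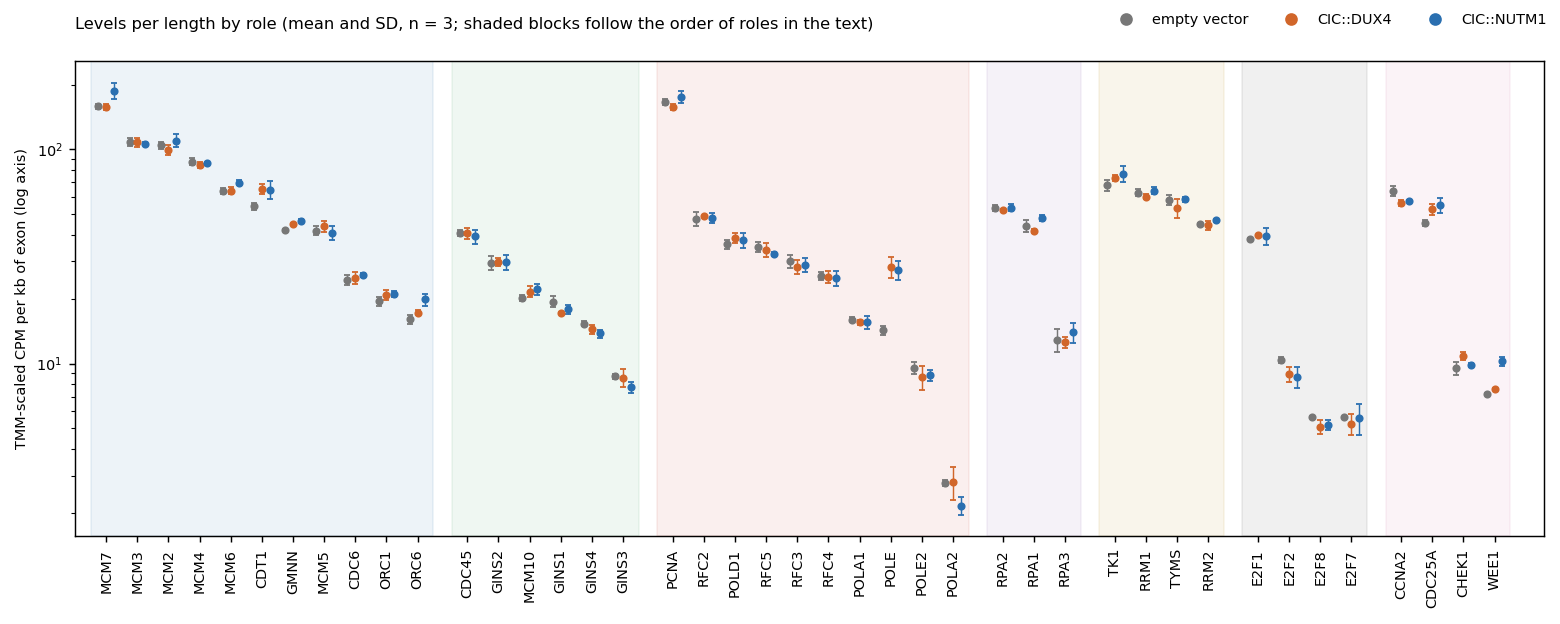
TMM-scaled CPM per kb of exon (log y axis) of the 42 members in the 3 groups, ordered within each role by the level with empty vector. Points are means and bars SDs over 3 libraries; the groups lie close together at most genes, with POLE (14.3 with empty vector, 28.3 and 27.4 with the fusions) the widest gap.

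CCND1 and CCNE1 were not alone among the G1 regulators. Of 15 G1 cyclins, CDKs and CDK inhibitors, 5 were higher and 1 lower with CIC::DUX4, and 7 were higher and none lower with CIC::NUTM1. The 15 genes and both counts of higher genes include CCND1 and CCNE1, which the question named as induced, so these counts are not independent of it. Of all tested genes, 6.96% were higher and 1.27% lower with CIC::DUX4, and 11.5% and 3.83% with CIC::NUTM1. CCND3, the cyclin D3 gene, rose by 0.45 ± 0.07 and 0.60 ± 0.07 on the log2 scale (adjusted p = 0.000126 and 1.49e-06). CDK inhibitor genes rose too. CDKN2D, which encodes an inhibitor of CDK4 and CDK6, went from 6.56 ± 0.513 CPM to 16.4 ± 2.31 with CIC::DUX4 and 22.1 ± 6.36 with CIC::NUTM1 (adjusted p = 1.14e-05 and 1.08e-07). CDKN2B, a gene of the same family, rose by 0.58 ± 0.13 and 1.41 ± 0.13 (adjusted p = 0.00377 and 1.74e-08). The first of these was lost without CIC::DUX4 replicate 1 (adjusted p = 0.0501). CDKN2C, of the same family, rose by 0.81 ± 0.08 with CIC::NUTM1 (adjusted p = 4.06e-08) and was at -0.17 ± 0.08 with CIC::DUX4 (adjusted p = 0.235).

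CDKN1B, the gene of p27, an inhibitor of cyclin E with CDK2, moved in opposite directions. It stood at 59.2, 58.9 and 58.5 CPM with empty vector, at 41.9, 44.6 and 44.2 CPM with CIC::DUX4 and at 112, 85.8 and 103 CPM with CIC::NUTM1, with no overlap among the 3 groups. It fell by 0.44 on the log2 scale with CIC::DUX4 (adjusted p = 0.00126) and rose by 0.77 ± 0.09 with CIC::NUTM1 (adjusted p = 2.63e-07), and the direct difference was 1.20 ± 0.09 (adjusted p = 1.87e-09). CDKN1B and CDKN2B with CIC::DUX4 lay outside the naming rule for that comparison and were chosen after their values were seen. CDK4 and CDK2, the kinases of these cyclins, likewise singled out after their values were seen, had changes between -0.13 and -0.02 that were not called. Between the fusions, 5 of the 15 genes, CCND1 among them, were higher with CIC::NUTM1 and none lower. Of tested genes 4.97% were higher and 1.64% lower. CDKN2A was also among the 5 (0.32, adjusted p = 0.0111), a call lost in 3 of 6 fits that left out 1 library.

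Of the 11 other genes of the RB, E2F and DP families and their partners, 1 was called in each comparison. That gene was LIN54, a DNA-binding subunit of the complex that controls cell cycle genes with RB family proteins. It stood at 29.6 ± 0.859 CPM with empty vector, 42.8 ± 5.50 with CIC::DUX4 and 71.6 ± 8.75 with CIC::NUTM1 (SD, n = 3). The rises were 1.45-fold (adjusted p = 0.000718) and 2.41-fold (adjusted p = 1.04e-09), and the difference between the fusions was 0.74 ± 0.10 (adjusted p = 1.55e-05). The other 10 had log2 fold changes from -0.15 to 0.09 with CIC::DUX4 and from -0.25 to 0.17 with CIC::NUTM1.

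A longer list of 48 other replication genes, all tested, had counts like those of the members. With CIC::DUX4, 3 were higher and 1 lower, and with CIC::NUTM1 4 were higher and 3 lower. That is 8.33% and 14.6% of the list, beside 8.24% and 15.3% of all tested genes. The medians were -0.03 and 0.00. Between the fusions 3 of the 48 were higher with CIC::NUTM1 and 2 lower (6.25% and 4.17%), where 4.97% of tested genes were higher and 1.64% lower. EXO1, of this list, was at -0.33 in that comparison (adjusted p = 0.00533). That call was lost without CIC::DUX4 replicate 1 (adjusted p = 0.0603). PRIM2, the large primase subunit, went from 29.2, 32.3 and 34.6 CPM with empty vector to 63.3, 52.5 and 51.6 CPM with CIC::DUX4 and 42.9, 43.5 and 45.8 CPM with CIC::NUTM1. It rose 1.74-fold (adjusted p = 1.20e-06) and 1.37-fold (adjusted p = 0.00117), with no overlap of the groups. Between the fusions PRIM2 was at -0.34 ± 0.09 (adjusted p = 0.0251), a call lost without CIC::NUTM1 replicate 1, CIC::NUTM1 replicate 2 or CIC::DUX4 replicate 1 (adjusted p up to 0.204).

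ASF1A, a histone chaperone gene, stood at 45.4, 42.4 and 38.9 CPM with empty vector, at 57.6, 52.2 and 46.8 CPM with CIC::DUX4 and at 93.8, 72.6 and 96.0 CPM with CIC::NUTM1. The CIC::NUTM1 libraries were the highest. It rose 2.07-fold with CIC::NUTM1 (adjusted p = 5.55e-08), was 1.24-fold with CIC::DUX4 (adjusted p = 0.0682) and differed between the fusions by 0.74 ± 0.10 (adjusted p = 2.75e-05). Smaller rises called with CIC::DUX4 were CHAF1A, a chromatin assembly subunit (0.25 ± 0.07), and CHTF18, of an alternative clamp loader (0.37 ± 0.11), and with CIC::NUTM1 DUT, a dUTPase (0.26 ± 0.08), and SLBP, the histone mRNA binding protein (0.20 ± 0.06). TIMELESS, a fork protection gene, fell by 0.21 in both comparisons (adjusted p = 0.0227 and 0.0141). MCM9, an MCM relative, and the ORC subunit gene ORC2, named after their values were seen, fell by 0.31 and 0.28 with CIC::NUTM1. Of these smaller calls, those of CHAF1A, CHTF18, DUT, SLBP and TIMELESS were each lost in 1 to 5 of 6 fits that left out 1 library.

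**Figure D4:**
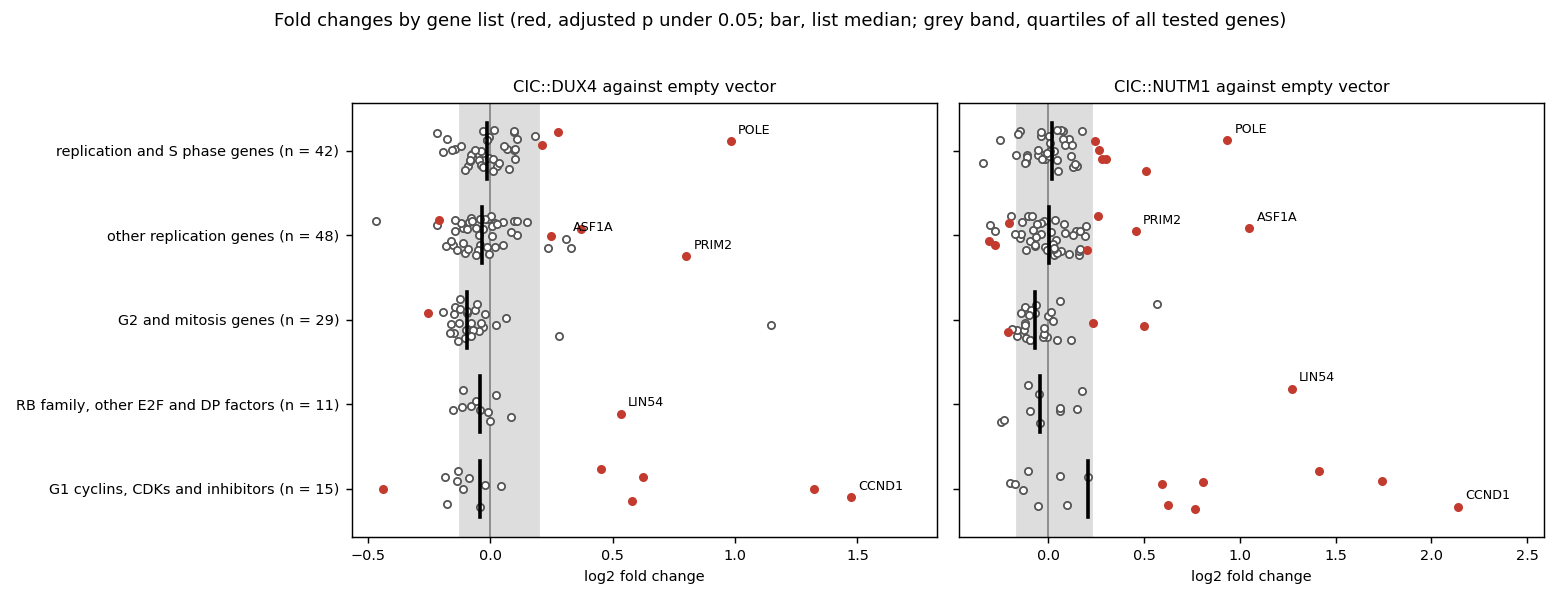
Log2 fold change (x axis) of every tested gene in 5 lists against empty vector. Red points passed an adjusted p of 0.05 and black bars are list medians. The grey band spans the quartiles of all tested genes (-0.12 to 0.20 and -0.16 to 0.23). The quartiles of both replication lists lie inside the band, which also covers genes outside the members' range of mean CPM. Tested genes within that range had narrower quartiles, -0.11 to 0.08 and -0.13 to 0.12. Some genes of both lists lie outside the band on either side, with POLE and PRIM2 to the right. Several G1 regulators also lie to its right.

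Genes of G2 and mitosis, which reflect the later part of the cycle, showed few calls. Of 30 listed 29 were tested, with 1 lower (HMMR, a spindle gene, by 0.25 on the log2 scale) and none higher with CIC::DUX4. With CIC::NUTM1, CDC25C, a phosphatase of mitotic entry, rose by 0.50 ± 0.10, PTTG1, the securin gene, rose by 0.24 ± 0.08, and UBE2C, which acts in mitotic exit, fell by 0.21. Called in either direction were 3.45% and 10.3% of the list, beside 8.24% and 15.3% of all tested genes. The list medians were -0.09 and -0.07, and 25 and 21 of the 29 genes had a negative log2 fold change. Of all tested genes, 49.7% and 49.9% had a positive one. The HMMR, PTTG1 and UBE2C calls were each lost in 3 to 5 of 6 fits that left out 1 library. PRC1, with 3 to 22 counts in each library, had little depth, and NUSAP1 was not tested. In GENCODE 29, 58.4% and 62.2% of the exon bases of PRC1 and NUSAP1 overlap other genes.

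Replication-dependent histone genes, whose messages mostly lack a polyA tail, were barely captured in these polyA-selected libraries. Their 24 genes summed to 23.7 to 43.2 CPM in each library, and 12 were tested. With CIC::DUX4, H2BC11 rose 3.02-fold, from 2.74 ± 0.306 to 8.20 ± 1.80 CPM (adjusted p = 2.52e-05), and H2BC21 rose 2.58-fold, from 1.55 ± 0.463 to 3.98 ± 0.920 CPM (adjusted p = 0.00313). With CIC::NUTM1 none was called, with 3.31 ± 0.720 and 2.11 ± 0.116 CPM for these 2 genes. At an unadjusted p under 0.05 there were 0 of 12, a threshold at which no share of all tested genes was computed. Between the fusions H2BC11 was at -1.32 (adjusted p = 0.000472), the 1 of the 12 genes called, where 4.97% of tested genes were higher and 1.64% lower.

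Library totals ranged from 16970771 to 33655445 counts. The fits called 1448 of the 17576 tested genes with CIC::DUX4 (8.24%). With CIC::NUTM1 they called 2691 (15.3%), and in the direct comparison of the fusions 1162 (6.61%). The share of called genes that were higher depended on scaling: with CIC::NUTM1 it was 75.0% (2018 higher, 673 lower) and became 61.0% under library totals (1783 and 1138) and 61.7% under upper quartile factors (1807 and 1124), and between the fusions 75.2% (874 and 288) became 61.4% under library totals (695 and 437). No scaling moved the median of all genes by more than 0.05 on the log2 scale. Marker genes of HEK293 cells (10 genes, such as VIM and KRT18) summed to 1409.5 to 1616 CPM with empty vector, 1344.5 to 1473 with CIC::NUTM1 and 1329 to 1373 with CIC::DUX4. The 6 fibroblast markers summed to 40.2 to 44.8 CPM over all libraries. The 5 endothelial markers summed to 0.481 to 0.966 CPM with empty vector, 3.52 to 6.36 with CIC::NUTM1 and 1.76 to 7.82 with CIC::DUX4, mostly from KDR, while PECAM1 had 0 to 9 counts and CDH5 0 to 3. The 5 blood markers summed to 1.14 to 3.13, 2.43 to 4.92 and 1.87 to 2.90 CPM in the same order of groups, with HBB at 0 counts in all 9 libraries. The part of these marker levels in the results was not tested. Reads of CIC, DUX4 and NUTM1 were not analysed here, and nothing in this text checks a library against the plasmid named in its label.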

How the data were processed

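PolyA-selected RNA of 293T cells was sequenced in 9 libraries, 3 for each plasmid, from strand-directional library kits per the labels' protocols. The deposited count table holds unnormalized counts of 62700 Ensembl genes. The authors also deposited log2 CPM for 15811 genes; over the 42 members these values differed from log2 CPM computed here with a prior count of 2 by at most 5.33e-15. The submitters' processing notes name STAR 2.7.10b, R 4.2.2, edgeR 3.40.2 and GRCh38. Which annotation was counted, and whether by strand, is not given in the sources used here.

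Tests used edgeR 4.0.16 (R 4.3.3), after filterByExpr (17576 of 34765 genes with at least 1 count) and TMM scaling. All 9 libraries entered 1 robust quasi-likelihood fit with a mean for each group, and Benjamini-Hochberg adjusted p under 0.05 over all tested genes was called. The common dispersion was 0.0102. SEs are those implied by the quasi-likelihood F statistic. Chi-square per degree of freedom between libraries of a group was 5.94 to 10.5, so none was a duplicate. Nothing says that the libraries of a group came from separately kept cultures, so p-values measure the spread between these libraries. Symbols matched 62622 IDs. GENCODE 29 gave exon lengths and overlaps, and RefSeq promoters on GRCh38.p14 were searched for exact motifs.

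Values in every library are given for members called in any comparison, for the member of each role with the largest change with each fusion, and for CCND1, CCNE1, MCM2, MCM7, PCNA, RRM2, E2F1 and CCNA2. Of the other lists, up to 4 genes of smallest adjusted p per comparison are named. The members and lists were chosen with earlier results of these data known. Alternatives were 3 other scalings, 2 other filters, DESeq2 1.42.0, limma-trend (limma 3.58.1) on the deposited log2 values, fits restricted to the 2 groups in question, a block for replicate number, and fits without each library in turn. The steps were tested on simulated data. Figures were drawn with matplotlib 3.10.9.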

Additional observations from a re-analysis of the deposited data

How the results depend on the processing

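No gene named in the text as called reversed its direction under the alternatives run, apart from MCM9 and ORC2, which were not followed through them. The members called higher with CIC::DUX4 numbered 2 or 3 in the settings that kept all libraries, and those with CIC::NUTM1 numbered 6. CCNA2 became 1 member called lower with CIC::DUX4 under library totals, upper quartile factors, no filter, DESeq2 and a fit of only the 2 groups. With CIC::NUTM1, E2F2 became 1 member called lower under DESeq2 size factors or no filter, and CCNA2 and E2F2 were 2 under library totals or upper quartile factors. A minimum of 10 counts in every library left 961 genes called with CIC::DUX4, with fewer genes tested. The members' median between the fusions was -0.013 under library totals, 0.0016 under upper quartile factors, 0.025 with DESeq2 and 0.017 with only those 2 groups.

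When 1 library was left out, 865 to 1487 genes were called with CIC::DUX4, 1920 to 3111 with CIC::NUTM1 and 690 to 1264 between the fusions, lowest without CIC::DUX4 replicate 1, empty vector replicate 3 and CIC::NUTM1 replicate 3. Members called higher were 1 to 2, 5 to 7 and 2 to 4, and members lower with CIC::NUTM1 were 0 to 1 (E2F2, without CIC::NUTM1 replicate 2). POLE was the 1 member left with CIC::DUX4 without empty vector replicate 2 or CIC::DUX4 replicate 1. The median between the fusions was 0.0059 to 0.035. The cause of these changes was not tested.

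The replicate numbers were not treated as a pairing, since the labels do not say that a number marks 1 day across groups. The deviations of same-numbered libraries correlated by -0.031 to 0.075 (other numbers, -0.11 to 0.070). Yet 7 of 9 libraries correlated best with their own number, and whether libraries of 1 number share an effect was not tested. With the replicate number as a block, 1472, 2739 and 1201 genes were called, and 3, 6 and 3 members were higher. Precision varied with depth among the members: POLA2, with the fewest counts (196 in 1 library), had an SE of 0.14 with CIC::NUTM1, against 0.05 for MCM4.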
